A study of Mus musculus with 3 samples.

Results

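The genes described here are 39 type I interferon response genes, chosen by name with earlier results of these data known. They are transcription factors, sensors of viral nucleic acid, antiviral effectors, enzymes of protein modification and the chemokine Cxcl10. Of these, 38 were among the 20605 genes of the count matrix, and Mx2 was not analysed here. They were followed in tumour epithelial cells, taken as cells with at least 1 Epcam UMI and no Tyrobp UMI (6759 of 7620 cells), with macrophages (Tyrobp UMIs and no Epcam UMI, 162 cells) and the 4T1 line (313 cells) beside them. The cells came from primary tumours of 20 mm in 4 C3(1)-Tag mice, an FVB line aged 25 to 30 weeks in which a C3(1) promoter drives the SV40 large T antigen. Organoids were embedded in collagen I and cell clusters in Matrigel, both in DMEM/F12 with insulin, transferrin and selenium and 2.5 nM FGF2, and cells were collected after 12 hours of plating (day 0) and on days 3 and 5. All groups carry the transgene and received FGF2, and no uncultured tumour was included. 4T1, a mouse mammary carcinoma line at passage 2, was grown on plastic in RPMI-1640 with serum and is not isogenic with these tumours. Collagen was digested with collagenase at body temperature and Matrigel was dissolved with EDTA on ice. Cells were then marked by condition with MULTI-seq barcodes, sorted as live cells and sequenced with the 10x 3′ v2 chemistry. Each day was 1 pool, so day and pool cannot be told apart, while both matrices of a day shared a pool.

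Type I interferons signal through the receptor pair Ifnar1 and Ifnar2 and the kinases Jak1 and Tyk2. Phosphorylated Stat2 joins Irf9 in a complex that binds the interferon-stimulated response element (ISRE) in the promoters of many such genes. Irf7 is itself induced and amplifies interferon production, and in mouse mammary tumour cells Irf7-driven interferon signalling is known as a restraint on bone metastasis.

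Promoters of 5 members that the results turn on are shown to set the ISRE beside the measurements: Isg15, Ifitm3 and Bst2, which contributed many UMIs, Ifit3, with the largest collagen to Matrigel difference, and Rsad2, which was not called between the matrices on day 0. Each window runs from 250 bases before to 50 after the RefSeq transcription start, 5′ to 3′ in the direction of the gene (GRCm38.p6, RefSeq). Capitals mark matches to the ISRE core (GAAA, 2 bases of any kind, then GAAA) on either strand, and overlapping matches run together. The windows are chr4:156200769-156201068 (minus strand) for Isg15, chr7:141010695-141010994 (minus) for Ifitm3, chr8:71537423-71537722 (minus) for Bst2, chr19:34583279-34583578 (plus) for Ifit3 and chr12:26456403-26456702 (minus) for Rsad2.
Isg15: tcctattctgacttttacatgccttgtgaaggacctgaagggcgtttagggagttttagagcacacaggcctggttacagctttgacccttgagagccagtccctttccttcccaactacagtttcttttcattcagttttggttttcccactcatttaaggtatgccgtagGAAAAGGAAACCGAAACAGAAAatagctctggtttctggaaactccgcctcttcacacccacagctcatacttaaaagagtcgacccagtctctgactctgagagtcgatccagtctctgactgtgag
Ifitm3: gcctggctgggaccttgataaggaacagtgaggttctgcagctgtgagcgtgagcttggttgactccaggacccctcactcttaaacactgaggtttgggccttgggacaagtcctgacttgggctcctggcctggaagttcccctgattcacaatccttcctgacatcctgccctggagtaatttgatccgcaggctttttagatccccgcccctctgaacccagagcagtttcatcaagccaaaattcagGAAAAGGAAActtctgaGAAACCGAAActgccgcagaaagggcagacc
Bst2: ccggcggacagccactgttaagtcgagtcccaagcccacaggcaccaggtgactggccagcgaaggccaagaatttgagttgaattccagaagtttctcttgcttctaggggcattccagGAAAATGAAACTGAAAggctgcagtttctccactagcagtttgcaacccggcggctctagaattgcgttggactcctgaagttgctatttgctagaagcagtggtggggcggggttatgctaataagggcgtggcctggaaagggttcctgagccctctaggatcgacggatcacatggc
Ifit3: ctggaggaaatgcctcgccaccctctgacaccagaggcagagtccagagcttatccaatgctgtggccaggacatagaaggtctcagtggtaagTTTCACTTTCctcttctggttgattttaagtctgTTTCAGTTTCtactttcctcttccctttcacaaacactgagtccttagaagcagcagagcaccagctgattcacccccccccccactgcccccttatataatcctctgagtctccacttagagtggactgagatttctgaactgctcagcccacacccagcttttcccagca
Rsad2: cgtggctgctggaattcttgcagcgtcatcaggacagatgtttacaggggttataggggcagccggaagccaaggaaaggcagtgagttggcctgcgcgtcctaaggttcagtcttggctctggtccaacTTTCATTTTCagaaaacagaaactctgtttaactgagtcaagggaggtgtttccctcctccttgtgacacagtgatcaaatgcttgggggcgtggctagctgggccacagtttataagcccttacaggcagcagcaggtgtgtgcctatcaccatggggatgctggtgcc
Isg15 held 3 overlapping matches whose first bases lay at -78, -72 and -66 from the start, and Bst2 held 2 overlapping ones at -130 and -124. Ifit3 held 2 separate matches at -156 and -122 and Rsad2 held 1 at -120. In Ifitm3 both matches lay after the start, at 2 and 19. RefSeq windows were matched for 29 of the 39 genes, and 15 of these 29 (51.7%) held the core, against 3.99% of 27025 genes with a window. The gamma-activated sequence TTCNNNGAA, searched the same way, occurred in 8 of the 29 (27.6%), against 9.55% of all genes, and in Ifitm3 and Bst2 it overlapped the ISRE matches. A match is a string of letters, not a measured binding site. Oas2, Ifi27l2a, Dhx58, Usp18, Zbp1, Mx1, Mx2, Rtp4, Parp9 and Parp14 had no window.

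UMI counts were summed over the epithelial cells of each mouse, matrix and day, and the mouse is the replicate. Sums of at least 20 cells numbered 21, each with 37 to 1119 cells and 1834832 to 45537786 UMIs; on day 5 mouse 4 had no cells, and 13 Matrigel cells of mouse 1 were left out. Group totals were 891, 2418 and 1043 cells in collagen and 1635, 671 and 101 cells in Matrigel on days 0, 3 and 5. The gated cells carried the 6 epithelial markers listed. On day 0 the keratin Krt18 averaged 1544 ± 432 CPM in collagen and 2149 ± 644 CPM in Matrigel (SD, n = 4 each). Of 2526 gated cells on day 0, 2 lay in the cluster of macrophages, 1 in a cluster led by Dcn and Col1a1, and 4 in a cluster with T cell receptor genes. Across pools 11 cell barcodes were shared (22 cells), and 56 mouse-labelled cells, 50 of them in the gate, clustered with 4T1. Throughout, CPM are UMIs per 1000000 UMIs of a sum after TMM scaling (unscaled for 4T1), and a gene is called when its adjusted p is under 0.05 among 13171 genes tested. In such sums fewer expressing cells and less RNA per cell cannot be told apart.

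On day 0, interferon response genes stood higher in collagen than Matrigel sums across sensors, OAS enzymes, IFIT and IFITM proteins, modifiers and Irf7. Of 38 members, 19 were called higher and none lower, against 4.13% of all genes called higher and 7.02% called in either direction (edgeR's quasi-likelihood test with Benjamini-Hochberg adjustment). The median log2 fold change of the members was 1.60, against 0.00 over all genes, and 37 of 38 lay above 0, with a range of -0.02 to 4.27. With the mouse as a block in the same edgeR test (the block fit), 30 members were called higher, against 12.3% of all genes. In 18 members every collagen sum lay above every Matrigel sum, as did 7.33% of all genes. Leaving out mouse 1, 2 or 3 left 4, 3 or 9 called members, and leaving out mouse 4 gave 20. The count was 10 when only the 2 groups compared were fitted and 11 when cells with both Epcam and Tyrobp UMIs were kept.

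**Figure D1:**
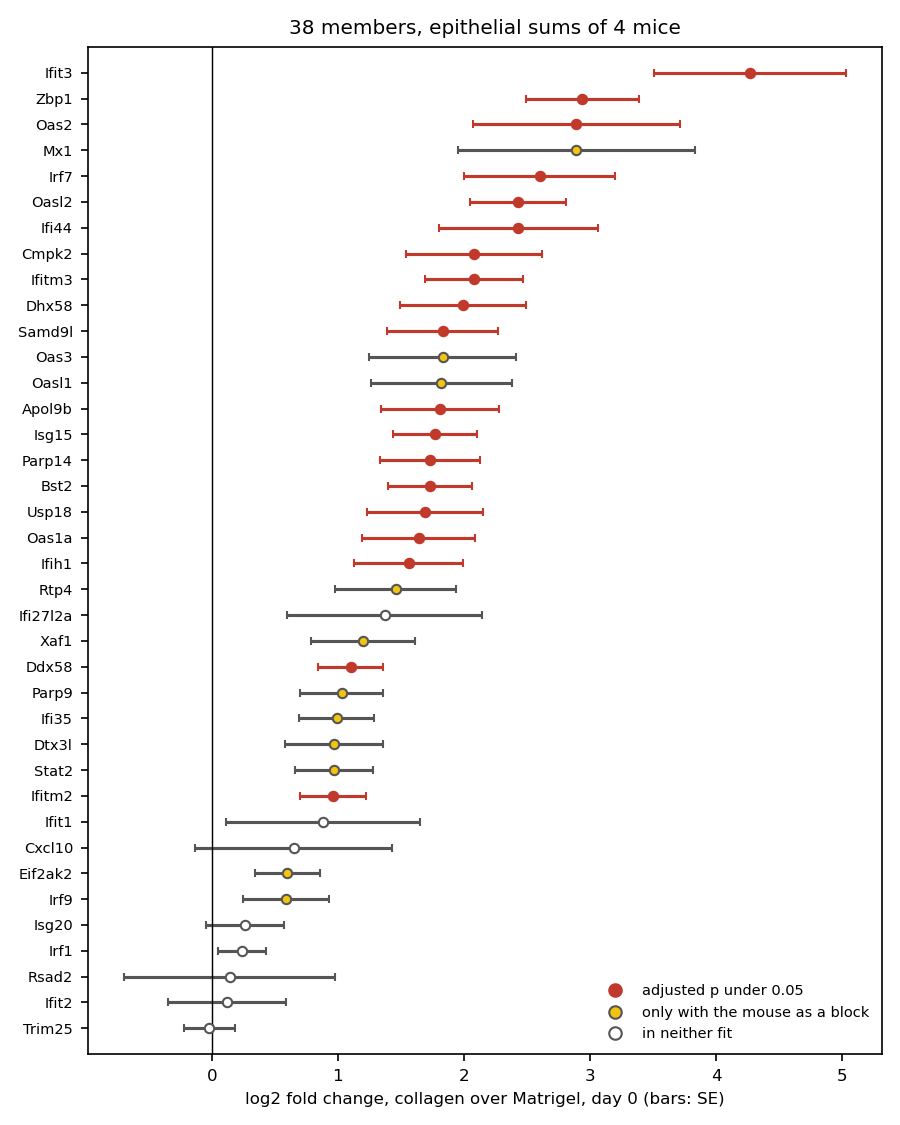
Log2 fold change of each of 38 members, collagen over Matrigel on day 0 (x axis, log2 scale), with bars of 1 SE from sums of 4 mice per matrix. Filled red points passed an adjusted p of 0.05, yellow points passed it only with the mouse as a block, and open points passed in neither fit; 37 of 38 points lie right of 0, from Ifit3 at 4.27 to Trim25 at -0.02.

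Among transcription factors, Irf7 was called. It had 78.5, 39, 46.6 and 34.6 CPM in collagen (mice 1 to 4) and 13.5, 7.8, 8.5 and 3.01 CPM in Matrigel, so the lowest collagen sum was above the highest Matrigel sum (log2 fold change 2.60, SE 0.60, adjusted p = 0.0147). Stat2 (0.97) and Irf9 (0.59) were called only with the mouse as a block. Irf1, which responds to several cytokines, averaged 28.8 ± 7.11 CPM in collagen and 24.4 ± 3.22 CPM in Matrigel and was not called in either fit (log2 fold change 0.24, SE 0.19).

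Of the 5 nucleic acid sensors, counting the kinase Eif2ak2, 4 were called and the block fit called all 5. Zbp1, a sensor of left-handed nucleic acid, had the smallest p among the members: 49.4, 28.4, 41.0 and 21.2 CPM in collagen, against 6.35, 3.69, 5.67 and 2.48 CPM in Matrigel (a log2 difference of 2.94 with SE 0.45, adjusted p = 0.0011). Every collagen sum was above every Matrigel sum. Ddx58, which encodes the RNA sensor RIG-I, had 35.9, 34.7, 26.0 and 23.8 CPM in collagen and 19.7, 15.2, 15.1 and 6.28 CPM in Matrigel (1.10, SE 0.26, adjusted p = 0.0164). Dhx58, its relative LGP2, had 14.4, 9.21, 13.8 and 9.66 CPM in collagen and 5.35, 2.13, 3.66 and 0.654 CPM in Matrigel (1.99, SE 0.50, adjusted p = 0.0224). Neither gene overlapped between the matrices. Ifih1, the sensor MDA5, was also called (1.56, SE 0.43, adjusted p = 0.0359), and the kinase Eif2ak2 (PKR), which halts translation on double-stranded RNA, was called only with the block (0.60).

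The OAS family makes linked oligoadenylates that activate RNase L. Of 5 members, 3 were called and the block fit called all 5. Oasl2, an OAS-like protein, had 81.6, 76.1, 29.6 and 42.0 CPM in collagen and 15.8, 14.6, 7.56 and 4.71 CPM in Matrigel (a log2 difference of 2.43 with SE 0.38, adjusted p = 0.00136), with the lowest collagen sum above the highest Matrigel sum. Oas1a (1.64, SE 0.45, adjusted p = 0.0332) and Oas2 (2.89, SE 0.82, adjusted p = 0.0403) were called as well. Oas2 was sparse, at 6.16, 6.23, 4.78 and 1.49 CPM in collagen and 1.67, 0.426, 0.354 and 0.0 CPM in Matrigel, and its groups overlapped in the collagen sum of mouse 4. Oas1a has a close copy in Oas1g, and reads of the pair may have been split or dropped in counting.

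IFIT proteins bind foreign RNA and IFITM proteins restrict entry of viruses at membranes, and 3 of these 5 genes were called. Ifit3 had 20.0, 11.1, 12.0 and 8.92 CPM in collagen and 0.669, 1.28, 0.118 and 0.654 CPM in Matrigel, the widest separation of the members (log2 fold change 4.27, SE 0.76, adjusted p = 0.00307). Its counts may be split with the near-identical Ifit3b. Ifitm3 had 1113, 825, 732 and 518 CPM in collagen and 245, 208, 170 and 129 CPM in Matrigel (2.08, SE 0.39, adjusted p = 0.00406). Ifitm2 had 274, 211, 201 and 179 CPM in collagen and 136, 106, 131 and 73.5 CPM in Matrigel (0.96, SE 0.26, adjusted p = 0.0303), and reads of the pair can be shared. All collagen sums of these 3 genes lay above all Matrigel sums. Ifit1, whose promoter window also holds the ISRE core, and Ifit2, whose window does not, were not called. Ifit1 averaged 36.7 ± 29.7 CPM in collagen and 20.3 ± 28.4 CPM in Matrigel (0.88, SE 0.77), a spread within each matrix as large as the difference. Ifit2 averaged 5.22 ± 2.94 CPM in collagen and 4.85 ± 1.99 CPM in Matrigel (0.12, SE 0.47).

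Of 6 genes for ISG15, its protease and ubiquitin or ADP-ribose modification, 3 were called and 5 with the block. Isg15, a ubiquitin-like protein attached to other proteins, had 521, 325, 421 and 209 CPM in collagen and 144, 73.5, 133 and 83.3 CPM in Matrigel (a log2 difference of 1.77 with SE 0.33, adjusted p = 0.00456), with no overlap. Parp14, an ADP-ribosyltransferase, had 25.1, 19.2, 5.98 and 19.0 CPM in collagen and 7.36, 6.67, 2.6 and 4.45 CPM in Matrigel (1.73, SE 0.40, adjusted p = 0.0147), and collagen from mouse 3 fell within the Matrigel range. Usp18, which removes ISG15 and dampens receptor signalling, was called at 1.69 (SE 0.46, adjusted p = 0.0346). Parp9 (1.03) and its partner ligase Dtx3l (0.97), which overlap on opposite strands of chromosome 16, were called only with the block. Trim25, the ligase that modifies RIG-I, averaged 19.7 ± 0.843 CPM in collagen and 20.0 ± 5.69 CPM in Matrigel (-0.02, SE 0.20).

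Of 12 other antiviral effectors, 5 were called and 9 with the block. Bst2, or tetherin, which holds virus particles on the cell surface, had 477, 313, 380 and 305 CPM in collagen and 159, 101, 112 and 71.4 CPM in Matrigel (a log2 difference of 1.73 with SE 0.33, adjusted p = 0.00512). Cmpk2, a mitochondrial nucleotide kinase, had 9.49, 4.6, 3.89 and 1.86 CPM in collagen and 1.78, 1.13, 0.709 and 1.18 CPM in Matrigel (2.08, SE 0.54, adjusted p = 0.0266). Ifi44 had 36.3, 14.4, 13.2 and 10.8 CPM in collagen and 6.35, 5.11, 1.89 and 0.785 CPM in Matrigel (2.43, SE 0.63, adjusted p = 0.0262). These 3 genes did not overlap between the matrices, and mouse 1 in collagen was the highest sum in each. Apol9b, of the apolipoprotein L family, had 57.4, 36.6, 56.8 and 20.1 CPM in collagen and 18.5, 11.3, 13.5 and 5.49 CPM in Matrigel (1.81, SE 0.47, adjusted p = 0.0259), again without overlap, and it has near-identical copies. Samd9l, which represses translation, had 27.8, 14.6, 5.38 and 36.8 CPM in collagen and 6.69, 5.39, 3.54 and 8.11 CPM in Matrigel (1.83, SE 0.44, adjusted p = 0.0169); collagen from mouse 3 lay inside the Matrigel range.

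Rsad2 and Cxcl10 were not called on day 0 in spite of their high counts in some sums. Rsad2, or viperin, which makes a chain-terminating nucleotide, had 53.8, 13, 15.8 and 19.0 CPM in collagen and 38.8, 15.2, 3.54 and 37.0 CPM in Matrigel, with wide overlap (log2 fold change 0.14, SE 0.84). Cxcl10, a chemokine that draws T cells, had 324, 126, 260 and 149 CPM in collagen and 84.4, 151, 156 and 157 CPM in Matrigel (0.65, SE 0.78), and mice 2 and 4 were lower in collagen than in Matrigel. Rsad2 lies next to Cmpk2 on chromosome 12 (26442746 to 26456452 and 26469204 to 26479837, GRCm38), and Cmpk2 was called while Rsad2 was not; the difference between the 2 genes was not tested. Of the 15 members whose window held the ISRE core, 9 were called on day 0 (median log2 fold change 1.56), and of the 14 whose window did not, 5 were called (median 1.10); both sets are small and this is a description.

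**Figure D2:**
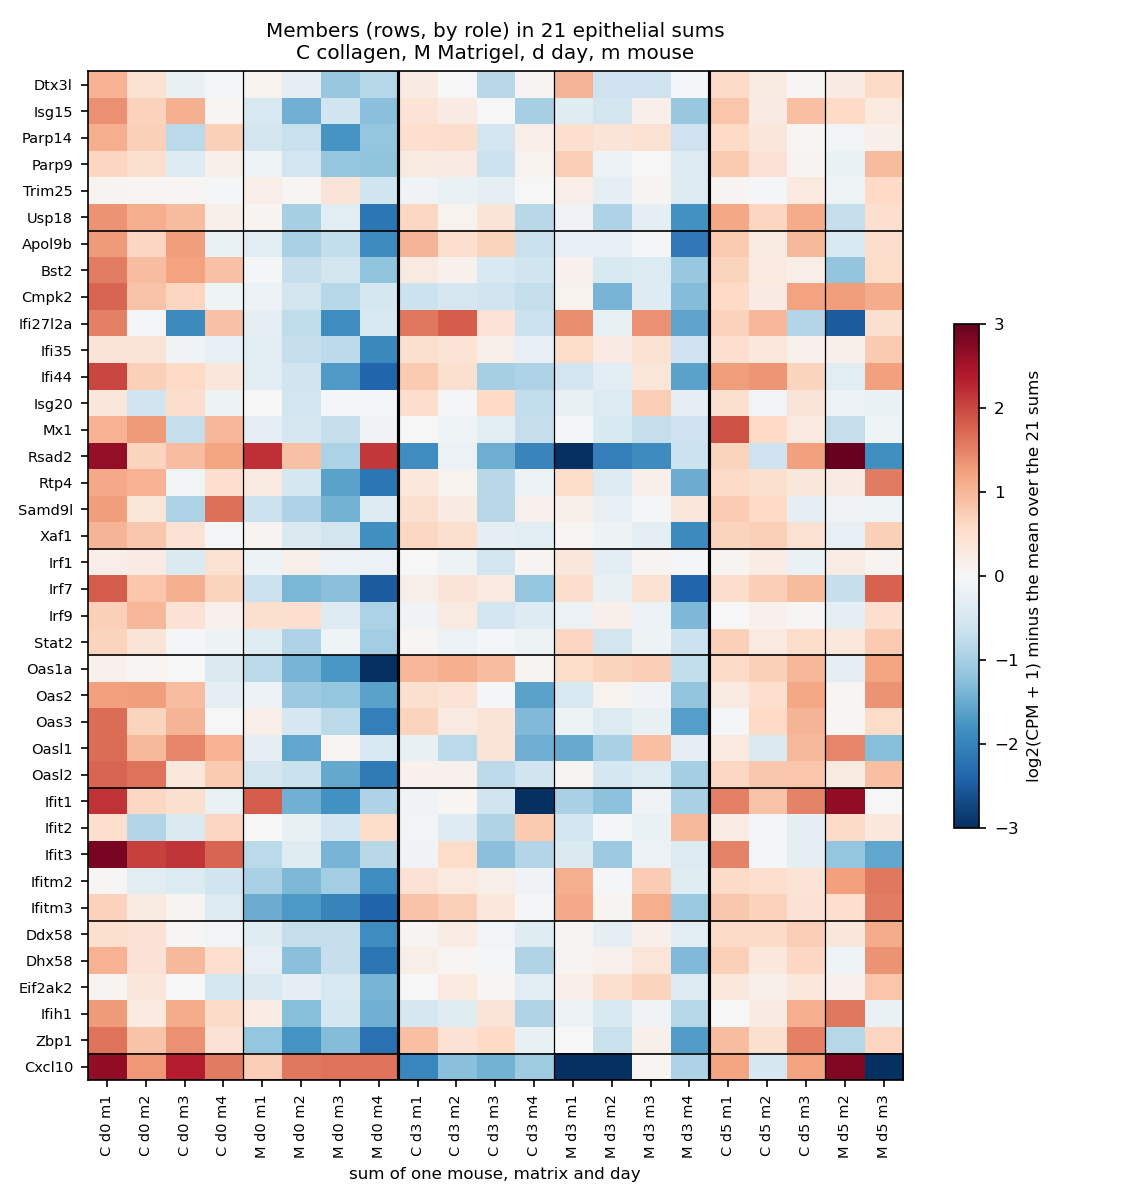
Members (rows, grouped by role) in each of the 21 epithelial sums (columns, C collagen, M Matrigel, d day, m mouse). Colour is log2(CPM + 1) minus the mean of the 21 sums; most rows are lowest in the 4 Matrigel sums of day 0, while Rsad2 and Cxcl10 are low in most day 3 sums of both matrices and in the day 5 Matrigel sum of mouse 3.

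Other genes of the pathway, listed by role, were read from the same fit. The lists were made with earlier results of these data known, so they are not independent support. Of 29 further interferon-induced genes tested, 17 were called higher in collagen on day 0 and none lower, against 4.13% of all genes higher. The median log2 fold change of the 29 was 1.39. The block fit called 25 higher, against 12.3% of all genes. The guanylate-binding proteins Gbp2 (1.74, SE 0.28, adjusted p = 0.00157), Gbp7 (2.14, SE 0.38, adjusted p = 0.00307) and Gbp3 (2.74, SE 0.49, adjusted p = 0.00325) and the interferon-induced protein Nmi (1.28, SE 0.21, adjusted p = 0.00187) had the smallest p. Of 10 upstream sensors, adaptors and kinases, Tmem173 (STING, 1.06, SE 0.22, adjusted p = 0.00761) and the kinase Ikbke (1.23, SE 0.34, adjusted p = 0.0342) were higher and Mb21d1 (cGAS, which makes the STING ligand) was lower in collagen (-0.91, SE 0.25, adjusted p = 0.0331). Of all genes 7.02% were called in either direction. None of 9 receptor and Janus kinase genes was called without the block, and the block fit called 3 higher and 1 lower. Of all 13171 genes the block fit called 1621 higher and 1569 lower. Ifnar1 averaged 26.3 ± 1.77 CPM in collagen and 27.2 ± 3.27 CPM in Matrigel. None of 7 negative regulators was called either (3 higher and 1 lower with the block); Socs1, a feedback inhibitor of Janus kinases, averaged 22.0 ± 6.15 CPM in collagen and 41.7 ± 5.93 CPM in Matrigel (-0.91, SE 0.35, adjusted p = 0.121, and 0.00671 with the block).

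Interferon transcripts themselves were near the limit of detection. Of 11 ligand genes, 5 were in the matrix and 1, Ifnk, passed the filter on low counts, at 0.828 ± 0.357 CPM in collagen and 1.02 ± 0.373 CPM in Matrigel on day 0 (log2 fold change -0.31, SE 0.85). Ifnb1, the interferon made first by most infected cells, averaged 0.0616 ± 0.123 CPM in collagen and 0.251 ± 0.502 CPM in Matrigel, with UMIs in few sums. Of 6 genes that respond mainly to interferon gamma, none was called on day 0 without the block (median log2 fold change 1.10). The block fit called 2 of them higher, against 12.3% of all genes.

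Several other measures were set beside the day 0 difference. Cells were shallower in collagen within each mouse, with a median of 20456, 15859, 19711 and 4834.5 UMIs per cell in collagen and 24921, 18441, 20731 and 9058 in Matrigel (mice 1 to 4). The median mitochondrial share was 3.59% in collagen and 2.42% in Matrigel, and the gels were opened with different reagents at different temperatures. The part of these in the result was not tested. Organoids were plated in collagen and cell clusters in Matrigel, so starting material, way of opening the gel and matrix cannot be told apart. Macrophage markers (8 genes, 1 at 0 in all sums, Tyrobp, by the gate) summed to 49.0 to 64.0 CPM in collagen and 45.7 to 64.4 CPM in Matrigel. Cd14 made up most of the sum, at 36.3 ± 9.54 CPM in collagen and 42.2 ± 6.96 CPM in Matrigel, while Csf1r averaged 6.51 ± 9.3 CPM in collagen and 3.07 ± 3.54 CPM in Matrigel and Fcer1g 1.79 ± 1.55 CPM in collagen and 0.619 ± 0.442 CPM in Matrigel. The 5 macrophage markers tested had a median log2 fold change of 0.80, and neither fit called any. The lysozyme gene Lyz2 averaged 1.78 ± 0.68 CPM in collagen and 1.01 ± 0.252 CPM in Matrigel, against 3695 CPM in macrophages of that day. T and NK markers summed to 7.77 to 29.1 CPM in collagen and 2.24 to 35.1 CPM in Matrigel, and fibroblast markers to 3.72 to 7.89 CPM in collagen and 2.12 to 7.24 CPM in Matrigel. Of 4 plasmacytoid dendritic markers, Bst2 is itself a member, 2 were at 0 in every collagen sum, and Tcf4, a transcription factor, averaged 83.4 ± 31.6 CPM in collagen and 59.4 ± 25.5 CPM in Matrigel (0.49, adjusted p = 0.528, and 0.0289 with the block, by edgeR). Epithelial markers differed in both directions. The basal keratin Krt5 averaged 107 ± 78.2 CPM in collagen and 19.4 ± 13.5 CPM in Matrigel, Krt8 822 ± 226 CPM in collagen and 1350 ± 354 CPM in Matrigel, and Cdh1 79.6 ± 18.3 CPM in collagen and 128 ± 45.9 CPM in Matrigel. No epithelial marker was called by edgeR without the block, and the block fit called Krt5 higher and Krt8, Krt18 and Cdh1 lower. The part of these markers in the result was not tested.

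The summed level of all members is given as a description. On day 0 it was 31.2 ± 8.75 UMIs per 10000 in collagen (43.7, 29.4, 28.4 and 23.3 for mice 1 to 4) and 11 ± 2.37 in Matrigel (14.3, 11, 10.2 and 8.68). Within each mouse collagen was higher, by ratios of 3.06, 2.67, 2.78 and 2.68. On day 3 the level was 22.0 ± 4.57 in collagen and 20.9 ± 8.59 in Matrigel, and mice 1 and 3 were lower in collagen than in Matrigel (ratios 0.888 and 0.722) while mice 2 and 4 were higher (1.46 and 1.63). On day 5 it was 30.2 ± 2.41 in collagen (3 mice), against 32.5 and 42.4 in the 2 Matrigel sums. Ifitm3 made up 36.6% of all member UMIs, Ifitm2 12.7%, Isg15 10.0% and Bst2 7.34%. Without Ifitm3 the day 0 level was 22.7 ± 6.17 in collagen and 9.1 ± 1.92 in Matrigel.

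**Figure D3:**
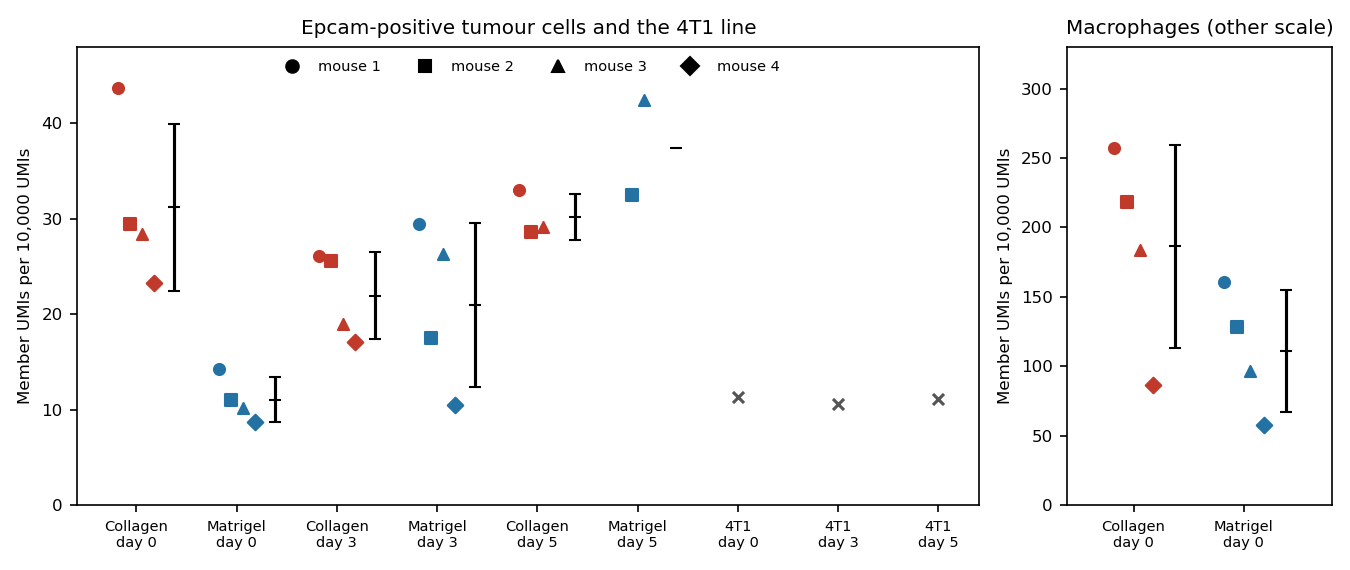
Member UMIs per 10000 UMIs in each epithelial sum (points, shape by mouse), with mean and SD beside them, for 4T1 (crosses, 1 sum a day) and, on another scale, macrophages of day 0. The 4 collagen sums of day 0 lie between 23.3 and 43.7, above the 4 Matrigel sums at 8.68 to 14.3, and the matrices overlap on day 3.

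On days 3 and 5 no member was called between the matrices by edgeR without the block. On day 3 none of the 38 members passed, against 0.197% of all genes called, and DESeq2 called 0. Of the members 3 had an unadjusted p under 0.05, as did 1236 of 13171 genes. The median log2 fold change of the members was 0.18. With the mouse as a block 3 members were called higher, against 2.5% of all genes called higher: Zbp1 (1.07, adjusted p = 0.00831), Apol9b (1.08, adjusted p = 0.00234) and Usp18 (0.92, adjusted p = 0.0152). Zbp1 had 29.6, 21.2, 23.6 and 13 CPM in collagen and 15.2, 9.34, 17.2 and 4.08 CPM in Matrigel, higher in collagen within each mouse although the groups overlapped. On day 5, with 3 collagen and 2 Matrigel sums, no member passed, against 0.326% of all genes called, and DESeq2 called 0. An unadjusted p under 0.05 was found for 4 members and for 1544 of 13171 genes. The median log2 fold change of the members was -0.10. The block fit called Zbp1 (1.00, adjusted p = 0.0362) and Usp18 (0.96, adjusted p = 0.0367) higher and Ifitm2 lower (-1.02, adjusted p = 0.0077), against 6.25% of all genes in either direction. Ifitm2 had 403, 381 and 360 CPM in collagen and 637 and 808 CPM in Matrigel.

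Whether the matrix difference itself changed was tested as an interaction. From day 0 to day 5 the log2 difference between the matrices fell by 1.88 for Ifitm2 (SE 0.41, adjusted p = 0.0327) and by 2.55 for Ifitm3 (SE 0.60, adjusted p = 0.046), the 2 members called, against 0.752% of all genes called lower; the block fit called 22 lower, against 7.36% of all genes. Without mouse 1, 2 or 3, or without the cells of a cluster led by Acta2 and Krt5, no member was called, and without mouse 4 there were 3. From day 0 to day 3 edgeR without the block called no member, against 0.0531% of all genes. An unadjusted p under 0.05 was found for 18 members and for 1417 of 13171 genes. The median of the members was -1.14. DESeq2 called 3 lower and the block fit 14 lower, against 3.11% of all genes. The day 0 sums enter both changes, which are therefore not independent.

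Within Matrigel, the IFITM genes, Oas1a and several sensors were higher on day 3 than on day 0. Of 38 members, 8 were called higher and 2 lower, against 19.6% of all genes called higher and 19.9% lower. The share of members called higher lay near that of all genes, and the share called lower was smaller than that of all genes. Ifitm3 had 1523, 735, 1462 and 317 CPM on day 3 and 245, 208, 170 and 129 CPM on day 0 (log2 fold change 2.42, SE 0.39, adjusted p = 9.3e-05). Ifitm2 had 574, 262, 461 and 208 CPM on day 3 and 136, 106, 131 and 73.5 CPM on day 0 (1.75, SE 0.26, adjusted p = 4.3e-05). All 4 mice were above every day 0 sum in both genes. Oas1a had 36.3, 39, 41.4 and 14.3 CPM on day 3 and 13.5, 8.65, 6.5 and 1.57 CPM on day 0 (2.09, SE 0.45, adjusted p = 0.00123). Ifi35, which binds Nmi, had 73.1, 58.4, 67.7 and 31.9 CPM on day 3 and 39.1, 30.2, 28.3 and 12.2 CPM on day 0 (1.05, SE 0.30, adjusted p = 0.00924).

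Eif2ak2 (0.89, SE 0.26, adjusted p = 0.0104), Ddx58 (0.75, SE 0.26, adjusted p = 0.0301) and Zbp1 (1.23, SE 0.46, adjusted p = 0.0403) rose among the sensors in Matrigel. Parp14 rose too, with 16.4, 14.9, 15.8 and 6.96 CPM on day 3 and 7.36, 6.67, 2.6 and 4.45 CPM on day 0 (1.32, SE 0.40, adjusted p = 0.014), and mouse 4 on day 3 lay inside the day 0 range. The 2 members that fell were Rsad2 (-3.29, SE 1.01, adjusted p = 0.015), at 0.0, 1.12, 1.37 and 4.62 CPM on day 3, and Cxcl10 (-2.63, SE 0.84, adjusted p = 0.019), at 1.17, 5.04, 52.2 and 25.8 CPM. In Matrigel on day 0 the highest cell held 84.2%, 81.3%, 16.7% and 78.8% of the Rsad2 UMIs of mice 1 to 4. Without the cell with the most member UMIs in each sum, 8 calls of this comparison were kept and 2 were lost. The block fit called 14 higher and 2 lower, against 27.0% of all genes higher and 28.3% lower, and without mouse 2 or mouse 3 the count was 6. Of other pathway genes, Tmem173 (2.06, SE 0.21, adjusted p = 7.26e-07) and Ikbke (2.05, SE 0.33, adjusted p = 9.43e-05) rose, and Mb21d1 (-1.48, SE 0.25, adjusted p = 0.000151) and Socs1 (-1.68, SE 0.36, adjusted p = 0.00128) fell. The ligand Ifnk was lower as well (-3.48, SE 1.17, adjusted p = 0.0244), at 0.163 ± 0.283 CPM on day 3 and 1.02 ± 0.373 CPM on day 0.

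In collagen, Cxcl10, Ifit3, Rsad2, Cmpk2, Bst2, Oasl2 and Oasl1 fell over the same days, none of them among the 8 that rose in Matrigel. Of 38 members, these 7 were called lower on day 3 than on day 0 and none higher, against 10.0% of all genes called lower and 9.46% higher, and the median log2 fold change was -0.80. Cxcl10 had 12.2, 20.3, 18.2 and 23.6 CPM on day 3 and 324, 126, 260 and 149 CPM on day 0 (-3.56, SE 0.87, adjusted p = 0.00681). Ifit3 had 1.75, 3.3, 0.236 and 0.604 CPM on day 3 and 20.0, 11.1, 12.0 and 8.92 CPM on day 0 (-3.03, SE 0.68, adjusted p = 0.00371). Rsad2 had 1.4, 6.79, 2.17 and 1.21 CPM on day 3 and 53.8, 13, 15.8 and 19.0 CPM on day 0 (-3.0, SE 0.92, adjusted p = 0.0273). In all 3 genes every day 3 sum was below every day 0 sum. Cmpk2 had 0.994, 1.19, 1.06 and 0.906 CPM on day 3, against the day 0 values above (-2.26, SE 0.54, adjusted p = 0.00554).

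Bst2 had 199, 181, 119 and 109 CPM on day 3 in collagen and 477, 313, 380 and 305 CPM on day 0 (-1.28, SE 0.33, adjusted p = 0.00971). Oasl2 had 25.9, 26.1, 13.3 and 15.4 CPM on day 3 and 81.6, 76.1, 29.6 and 42.0 CPM on day 0 (-1.50, SE 0.36, adjusted p = 0.00646). Neither overlapped between the days, and Oasl1, which in mouse restrains translation of Irf7, was the remaining member that fell (-1.70, SE 0.55, adjusted p = 0.0354). The block fit called 19 lower and 2 higher, Oas1a (0.87) and Ifitm2 (0.53), against 19.4% of all genes lower and 18.7% higher. Without mouse 1 the count was 3 and without mouse 2 it was 4. Without the cell with the most member UMIs in each sum, 6 calls were kept and 1 was lost. Among 29 further interferon-induced genes 9 fell and 1 rose in collagen without the block, against 10.0% of all genes lower and 9.46% higher. The smallest p were those of Parp12 (-1.11, SE 0.20, adjusted p = 0.000774), Gbp2 (-1.29, SE 0.27, adjusted p = 0.00215), Irgm1 (-1.67, SE 0.38, adjusted p = 0.00398) and Gbp3 (-2.04, SE 0.47, adjusted p = 0.0043). Rsad2 and Cxcl10 thus fell in both matrices, in comparisons that share no sums but share the mice and the pools, so they are not independent. On day 0 the highest cell held 16.7% to 84.2% of a sum's Rsad2 UMIs and 13.3% to 70.8% of its Cxcl10 UMIs.

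**Figure D4:**
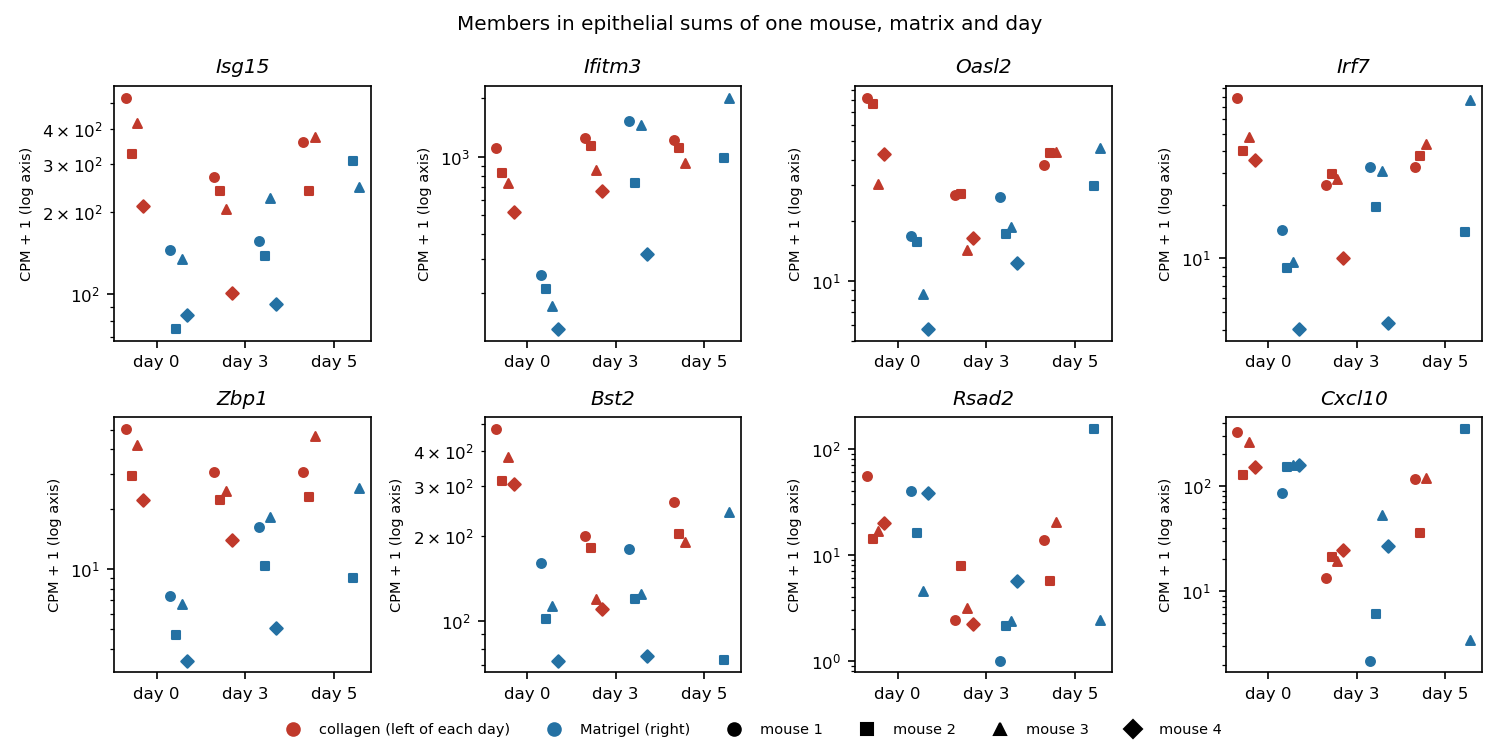
CPM plus 1 (log axis) of 8 members in each epithelial sum by day, collagen left and Matrigel right of each day, shape by mouse. In Isg15, Ifitm3, Oasl2, Irf7, Zbp1 and Bst2 the collagen sums of day 0 stand above the Matrigel sums, while Rsad2 and Cxcl10 overlap on day 0 and have 1 Matrigel sum of day 5 (mouse 2) far above the other.

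From day 3 to day 5 most fitted changes were above 0 while few were called: 36 of 38 were above 0 in collagen and 33 of 38 in Matrigel (median 0.71). In collagen edgeR without the block called none (median of the members 0.53), against 1.16% of all genes called. Of the members 7 had an unadjusted p under 0.05, as did 1598 of 13171 genes. DESeq2 called 1 higher. The block fit called Cmpk2 (1.86), Mx1 (2.25), Oasl2 (0.95) and Usp18 (0.61) higher, against 4.68% of all genes. In Matrigel Rsad2 (5.00, SE 1.12, adjusted p = 0.0239) and Cmpk2 (3.00, SE 0.71, adjusted p = 0.0325) were called higher, against 1.42% of all genes. The Rsad2 value came from 1 cell. Rsad2 had 152 CPM in mouse 2 and 1.45 CPM in mouse 3 on day 5, and 1 cell of mouse 2 held 99.6% of the Rsad2 UMIs of that sum. Without the cell with the most member UMIs in each sum the log2 fold change was -1.13 (adjusted p = 0.731), and without mouse 2 it was -0.91 (adjusted p = 0.908); in both cases no member was called. Cmpk2 had 6.48 and 5.79 CPM on day 5 and 2.34, 0.187, 1.37 and 0.268 CPM on day 3. The block fit called 5 higher, against 5.93% of all genes, and without mouse 1 or mouse 4 the count was 1.

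Macrophages of the same pools held far more of these transcripts. With both matrices of a mouse summed on day 0, 36 of 38 members were lower in epithelial cells and 1 was higher, against 23.0% and 34.8% of 11345 genes called lower and higher, and the median log2 fold change was -3.45, against 0.34 over all genes. Irf7 averaged 20.9 ± 12.9 CPM in epithelial cells and 1140 ± 559 CPM in macrophages (log2 fold change -5.77; SD, n = 4 mice each here and below). Ifi27l2a, a small mitochondrial protein gene, averaged 18.8 ± 13.2 CPM in epithelial cells and 1983 ± 822 CPM in macrophages (-6.72). Mx1, a dynamin-like GTPase, averaged 0.759 ± 0.519 CPM in epithelial cells and 80.3 ± 63.7 CPM in macrophages (-6.84). Every macrophage mean of these genes was far above its epithelial mean. Stat2 averaged 5.17 ± 1.65 CPM in epithelial cells and 73.0 ± 21.4 CPM in macrophages, Dhx58 5.32 ± 2.55 CPM in epithelial cells and 87.8 ± 16.3 CPM in macrophages, and Parp14 8.66 ± 4.6 CPM in epithelial cells and 221 ± 107 CPM in macrophages. The smallest called difference was that of Irf1 (-1.27). Apol9b, named because it was the sole member higher in epithelial cells, averaged 20.6 ± 10.3 CPM there and 2.76 ± 3.95 CPM in macrophages (2.30, SE 0.72, adjusted p = 0.0153; not called without mouse 2 or mouse 3). Cxcl10 was not called, at 153 ± 22.4 CPM in epithelial cells and 424 ± 661 CPM in macrophages (-1.55, adjusted p = 0.0978).

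The macrophages also showed a higher summed level in collagen on day 0. It was 257, 218, 184 and 86.2 UMIs per 10000 in collagen (31, 14, 7 and 3 cells of mice 1 to 4) and 161, 128, 96.8 and 57.8 in Matrigel (35, 22, 22 and 11 cells). The ratios within mice were 1.6, 1.7, 1.9 and 1.49, below the epithelial ratios of 2.67 to 3.06 in each mouse. In both cell classes and both matrices the mice kept 1 order on day 0, mouse 1 highest and mouse 4 lowest. These are descriptions from few cells and were not tested.

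The 4T1 line had a summed level of 11.3, 10.6 and 11.1 UMIs per 10000 on days 0, 3 and 5, with 1 sum a day and no replicate. On day 0 Ifitm3 stood at 310 CPM, Ifitm2 at 238, Bst2 at 150 and Isg15 at 57.0, while Irf7 was at 3.84 and Cxcl10 at 5.94. Mx1 had 4 UMIs (0.495 CPM), and Oas2 had none in 98 cells, which allows up to 0.371 CPM by a limit of 3 counts. The level of 4T1 lay within the range of the day 0 Matrigel sums, 8.68 to 14.3.

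Among single cells the day 0 difference was visible both in how many cells carried member UMIs and in a tail of very high cells. After each cell was thinned to 5000 UMIs, which left out 194 of 891 collagen cells and 282 of 1635 Matrigel cells, cells held 15.8 ± 4.09 member UMIs in collagen and 5.78 ± 1.48 in Matrigel (SD over 4 mice). At least 5 member UMIs were found in 62.4% ± 4.19 of collagen cells and 31.3% ± 7.57 of Matrigel cells. At least 25 were found in 18.1% ± 6.02 of collagen cells and 2.77% ± 0.759 of Matrigel cells, so the ranges over mice did not overlap in either share. An Isg15 UMI remained in 37.2% of thinned collagen cells and 19.9% of Matrigel cells, beside 13.3% of 4T1 cells (exact 95% interval 7.26 to 21.6), whose median depth was 83628 UMIs before thinning. For Ifitm3 the share was 63.8% in collagen and 35.5% in Matrigel, beside 67.3% in 4T1 (57.1 to 76.5). For Cxcl10 it was 12.9% in collagen and 11.9% in Matrigel, beside 1.02% in 4T1 (0.0258 to 5.55). Without thinning the share was 51.9% in collagen and 34.0% in Matrigel for Isg15, 69.5% in collagen and 57.2% in Matrigel for Ifitm3, and 18.7% in collagen and 22.5% in Matrigel for Cxcl10.

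Cells with at least 100 member UMIs per 10000 numbered 200, or 2.96% of epithelial cells. On day 0 they were 12.16%, 5.24%, 4.4% and 3.77% of collagen cells of mice 1 to 4 and held 51.9%, 24.9%, 28.1% and 35.2% of all member UMIs there. In Matrigel they were 0.88%, 0.94%, 1.31% and 1.85% of cells and held 16.1%, 11.4%, 13% and 18.8% of member UMIs. Every collagen share was above every Matrigel share. The middle of the distribution shifted too, with a median cell at 12.4 ± 3.05 per 10000 in collagen and 5.83 ± 1.37 in Matrigel (SD over 4 mice).

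Members differed in how they were spread over cells. The 10% of cells richest in Ifitm2 held 31.4% of its UMIs (median over sums), and the figures for Ifi35, Eif2ak2, Ifitm3 and Bst2 were 36.0%, 40.1%, 44.8% and 48.6%. For Cxcl10 it was 97.9%, for Ifit1 99.5% and for Rsad2 100%. A sparse gene concentrates by counting alone, and the part of sparseness in these shares was not tested. Cxcl10 contributed 3.14% of member UMIs, Ifi35 2.27% and Eif2ak2 2.24%. Single cells could dominate a sum, taken over sums with at least 20 UMIs of the gene. The highest cell held up to 100% of a sum's Ifit3 UMIs, 99.6% of its Rsad2, 98.6% of its Cxcl10, 92.7% of its Ifit1 and 91.3% of its Oasl1. The cell with the highest level, from Matrigel on day 0 and mouse 1, had 1862 member UMIs of 16272, with 522 of Ifit1, 350 of Isg15, 322 of Cxcl10 and 293 of Rsad2 but 4 of Ifitm3. The next, from Matrigel on day 5 and mouse 2, had 3237 of 53188, with 1107 of Cxcl10, 580 of Isg15, 489 of Rsad2 and 340 of Ifit1. Another, from collagen on day 0 and mouse 1, had 1859 Cxcl10 UMIs of 46654 and 1 of Ifitm3.

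**Figure D5:**
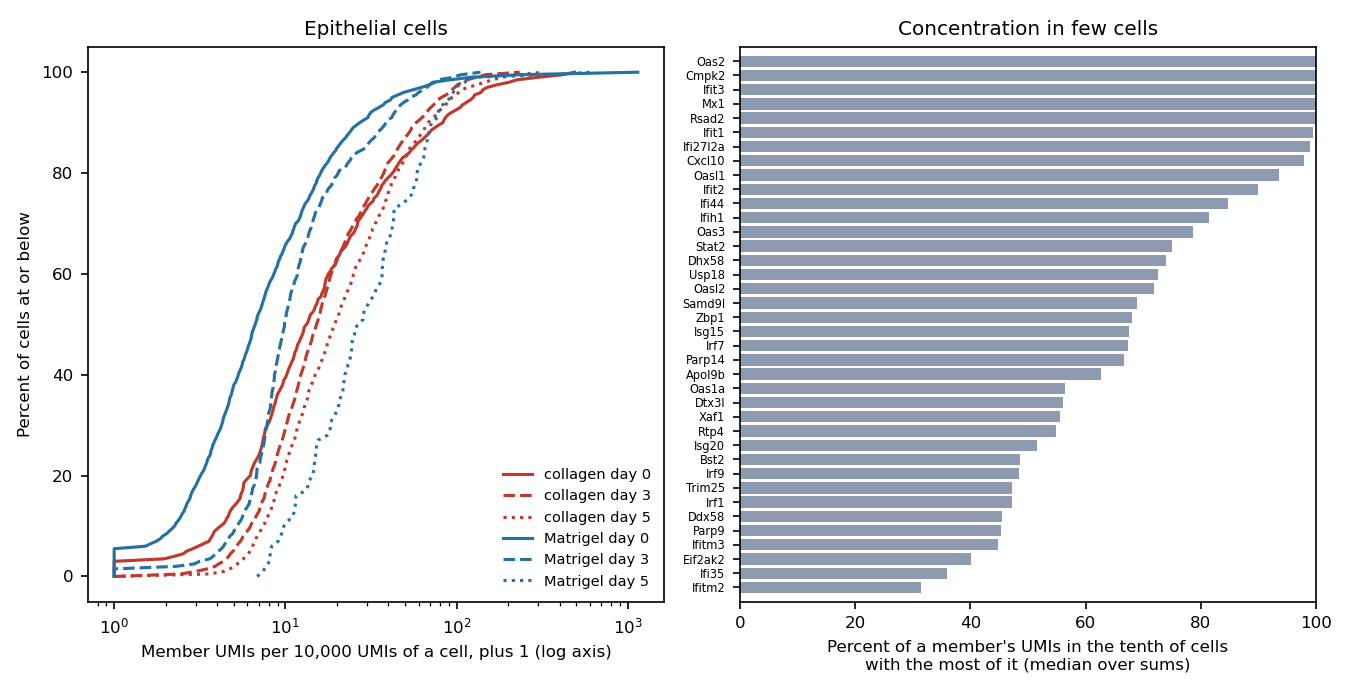
Left, cumulative share of epithelial cells (y axis, percent) by member UMIs per 10000 plus 1 (log axis) for each matrix and day; the day 0 Matrigel curve lies left of the day 0 collagen curve, with its single highest cell at 1140. Right, for each member the percent of its UMIs held by the 10% of cells with the most of it (median over sums with at least 20 of its UMIs), from 31.4 for Ifitm2 to 100 for Rsad2.

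Cells with a UMI of one of the concentrated genes were also richer in the other members. On day 0 cells with Rsad2 had 97.9 other member UMIs per 10000 in collagen and 38 in Matrigel, against 25.9 in collagen and 9.16 in Matrigel in cells without it. For Ifit1 the cells with a UMI had 99.9 in collagen and 44.8 in Matrigel, and those without had 18.8 in collagen and 9.19 in Matrigel. For Cxcl10 the contrast was smaller, at 58.2 in collagen and 16.4 in Matrigel with a UMI and 25.4 in collagen and 8.1 in Matrigel without. Cells with a UMI were deeper by the median except for Cxcl10 in Matrigel. The median was 20018 UMIs in collagen cells with Rsad2, against 15958.5 in those without. In Matrigel it was 13491 UMIs in cells with Cxcl10, against 16952 in those without. These are descriptions over cells, which share their mouse and pool.

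High cells gathered in a few of 22 clusters, which are named here by their leading genes only. A cluster led by Acta2, Krt5 and Tagln, with no member among its top 10 genes, held 285 gated cells with a median level of 64.8 and 52 of the 200 high cells. A cluster led by Stfa3 and BC100530 held 83, but Cxcl10, Ifit1, Rsad2 and Isg15 are among its top 10 genes and so helped to define it. On day 0 the Acta2 and Krt5 cluster made up 5.78%, 4.71%, 0.63% and 0.0% of collagen cells and 0.29%, 0.94%, 0.26% and 0.0% of Matrigel cells of mice 1 to 4. With its cells left out the summed level of mice 1 to 4 was 39.5, 25.5, 28.4 and 23.3 in collagen and 14.1, 10.7, 10.2 and 8.68 in Matrigel, and 18 of 38 members were called. The matrices filled the clusters unequally on day 0. The 2 clusters with the most gated cells, led by Dcpp1 and by Hspb8, held 22.4% and 8.9% of collagen cells and 30.8% and 32.4% of Matrigel cells. The Stfa3 cluster held 6.3% of collagen cells and 0.4% of Matrigel cells. A cluster led by AC160336.1 and Olfr1369-ps1 held 25.4% of collagen cells, the largest share there, and 13.6% of Matrigel cells. It was shallow, with a median of 2645.5 UMIs over its 582 cells of all days. Of the 5 clusters with at least 20 cells of each matrix on day 0, 4 had a higher level in collagen, with ratios of 1.32 to 2.98. The other, the shallow AC160336.1 cluster, had a lower level in collagen (ratio 0.685, with 12.4 in collagen and 18.1 in Matrigel). In the cluster with the ratio of 1.32 the median cell stood at 8.21 in collagen and 8.31 in Matrigel.

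Across the 21 sums most members moved with the rest. Pearson's r between a member and the mean of the others was 0.94 for Oasl2, 0.93 for Isg15, 0.93 for Ifi44, 0.74 for Ifi35 and 0.71 for Ifitm3, and after the 6 group means were subtracted it was 0.78, 0.76, 0.84, 0.85 and 0.84 for the same genes. It was 0.07 for Cxcl10, 0.16 for Rsad2 and -0.15 for Ifit2, and -0.22, -0.05 and -0.38 after subtraction. The sums share mice and pools, so these values describe the set and carry no test. The members lowest by this measure, Cxcl10, Rsad2 and Ifit2, are among those with no called matrix difference on day 0. The day 0 sums enter the measure, so the 2 are not independent. After subtraction Samd9l, which was called, was also low (0.09), as were Oasl1 (0.09) and Irf1 (0.11), which were not called without the block.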

How the data were processed

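Single-cell RNA-seq of 3 pools (days 0, 3 and 5) was used as deposited. Per the labels' protocols, cells were barcoded with MULTI-seq, and the tools named are Cell Ranger 3.0.2 and Scanpy 1.4.4, with GRCm38/mm10 as build (per the submitters' processing notes, which give no roles). The deposited values are UMI counts of genes in single cells, and all 39668312 matrix entries were whole. The mitochondrial fraction in the deposited cell table matched the matrix, and the table, which gives each cell's day, mouse and matrix, calls its first time point D1; taking this as day 0 is an inference. No per-sample value columns were left unused. Doublets were treated only by leaving out the 85 cells with both Epcam and Tyrobp UMIs; no doublet caller was run. The 39 members and all lists were chosen with earlier results of these data known.

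For each mouse, matrix and day the counts of at least 20 cells were added up and fitted with edgeR 4.0.16 (limma 3.58.1, R 4.3.3): TMM scaling, edgeR's expression filter, 6 groups in 1 quasi-likelihood fit, Benjamini-Hochberg adjustment over 13171 genes (11345 for macrophages), called at an adjusted p under 0.05. Log2 fold changes are the later day over the earlier, collagen over Matrigel or epithelial cells over macrophages. The p-values measure the spread between mice. On counts simulated for collagen over Matrigel on day 0, 75 of 100 genes changed 2-fold and 96 of 100 changed 4-fold were called among 13171 genes. The changed genes were drawn only from those averaging over 20 CPM, and no mouse effect was simulated. These rates therefore do not cover the sparser members, such as Oas2 and Mx1.

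Per the cell labels, mice 1 to 4 supplied both matrices on days 0 and 3, so the mouse pairs those sums. On day 5 only mice 2 and 3 had a sum in both matrices. Deviations from group means correlated with a median of 0.306 between sums of the same mouse (0.075 to 0.68) and -0.149 between others, and 20 of 21 sums were closest to their own mouse. The common dispersion was 0.0861, and 0.0256 with the mouse as a block. No sum copied another: chi-square divided by its degrees of freedom was 8.3 to 69.5 over 28 replicate pairs.

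Clusters came from Scanpy 1.11.5 and leidenalg 0.10.2 (2000 variable genes, 30 components, 15 neighbours, resolution 1.0; Python 3.11.15, NumPy 2.4.6, pandas 2.3.3, SciPy 1.17.1, matplotlib 3.10.9). Values per sum were printed for up to 14 called members with the smallest p on day 0 and up to 6 in each other comparison, with up to 4 called genes of each pathway list; further genes were named after their values were seen. Alternatives were DESeq2 1.42.0 and its size factors, no filter, the mouse as a block, only the groups compared, each mouse left out, other gates and depth limits. Leaving out the top cell of each sum or the Acta2 and Krt5 cluster, and requiring 2 Epcam UMIs, were added after seeing the data. Gene positions are from GENCODE vM21 (GRCm38). Intervals and limits from 3 counts cover counting error only.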

Additional observations from a re-analysis of the deposited data

Results flagged for a closer look

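In 5 of 102 groups of 4 mice examined, 1 sum stood far from the other 3. The groups covered 24 members and the summed member level of epithelial cells and macrophages, and chance flags about 1 in 20 groups. In collagen on day 0, mouse 1 was the highest sum for Rsad2, at 53.8 CPM with the others at 13 to 19.0, and for Ifi44, at 36.3 CPM with the others at 10.8 to 14.4. In Matrigel on day 0, mouse 1 was the lowest sum for Cxcl10, at 84.4 CPM with the others at 151 to 157. In Matrigel on day 3, mouse 4 was the lowest sum for Apol9b, at 4.48 CPM with the others at 19.2 to 22.2, and for Parp14, at 6.96 CPM with the others at 14.9 to 16.4.

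The difference between collagen and Matrigel itself changed from day 0 to day 5 for Ifitm2 (log2 change -1.88) and Ifitm3 (-2.55), by the interaction test of edgeR's quasi-likelihood fit (adjusted p = 0.0327 and 0.046). On day 5 this rests on 3 collagen and 2 Matrigel sums.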

How the results depend on the processing

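The mouse as a replicate block moved every count between the matrices and between days: members called were 30 on day 0, 3 on day 3, 3 on day 5, 14 and 22 for the change of the matrix difference to day 3 and day 5, 21 and 4 in collagen and 16 and 5 in Matrigel from day 0 to 3 and from day 3 to 5. It did not move the count against macrophages. Fitted with only the groups compared, the counts were 10 for collagen over Matrigel on day 0, 13 in collagen from day 0 to 3 and 0 in Matrigel from day 3 to 5. DESeq2 called 3 and 4 members for the changes to day 3 and day 5 and 1 in collagen from day 3 to 5. With cells holding Epcam and Tyrobp UMIs kept, day 0 gave 11 called members, and the change to day 5 and Matrigel from day 3 to 5 gave 1 each. The change to day 5 gave 1 with no filter, without cells that cluster with 4T1 or without the top cell of each sum, and 0 without the Acta2 and Krt5 cluster. Without the top cell, Matrigel from day 3 to 5 gave 0. Leaving out each mouse in turn gave 3 to 20 on day 0, 0 to 3 for the change to day 5, 3 to 8 in collagen and 6 to 11 in Matrigel from day 0 to 3, and 0 to 2 in Matrigel from day 3 to 5. Rsad2 in Matrigel from day 3 to 5 reversed, to -0.91 without mouse 2 and -1.13 without the top cell, and reached 6.21 without mouse 4. The ratio of group means of member UMIs per cell on day 0, collagen over Matrigel, was 2.73 after thinning to 5000 UMIs and 2.36 after thinning to 2000. Without Ifitm3 the ratio of group means of the summed level, not thinned, was 2.49. Other causes were not tested. Over 77 results of single members, 890 of 1013 values under alternatives kept direction and side of the threshold, 121 were no longer called and 2 were the reversed ones. Depth limits the members under 2 CPM, such as Mx1, Oas2 and Ifit3 in Matrigel.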

Other observations

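Of 9 receptor and Janus kinase genes in Matrigel, 2 were called higher and 2 lower on day 3 than on day 0, shares near the 19.6% and 19.9% of all genes. The receptor chain Ifnar2 (0.82) and the kinase Tyk2 (0.68) were called higher, and the other receptor chain Ifnar1 (-0.57) and Jak2 (-0.66) lower, all on the log2 scale. Among negative regulators the phosphatase Ptpn6 (1.66) was called higher and Ptpn2 (-0.78) lower. Ptpn6 is also a leukocyte gene, and it was lower in epithelial cells than in macrophages on day 0 (-4.37).

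The guanylate-binding protein Gbp2 averaged 28.3 ± 4.26 CPM in collagen on day 5 and 10.8 ± 2.87 CPM on day 3 (log2 fold change 1.36, adjusted p = 0.0182), and Irgm1, an immunity-related GTPase, was higher on day 5 in collagen (1.71, adjusted p = 0.0385) and in Matrigel (1.96, adjusted p = 0.0375), by edgeR's quasi-likelihood test with Benjamini-Hochberg adjustment.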
